A study of Zea mays with 2 samples.

Results

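A set of 94 entries stood at a moderate level in wild-type (WT) maize endosperm and was at least 4-fold higher in endosperm of the mutant dek37, out of 56848 entries measured. An entry is a gene or transcript that the deposited files list by chromosome, start and end. The set was chosen from the deposited values themselves: a WT level of at least 10 and below 300 RPKM (reads per kilobase, scaled to the depth of the library), and a ratio of dek37 over WT of at least 4 with no pseudocount. The ratio and both levels therefore describe the choice, and no test is given for them. Within that WT range lay 13247 entries, of which the 94 were 0.710%, on 90 distinct loci. These 94 are called members below.

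Endosperm RNA of Zea mays kernels had been sequenced for the genotypes dek37 and WT, both collected 18 days after pollination (18 DAP), with 1 library per genotype. The allele, the genetic background, the number of kernels and any pooling of kernels are not stated in the labels. Each difference is therefore one between 2 libraries, with no replicate check and no p-value. In such bulk samples, more cells of a type and more RNA per cell cannot be told apart.

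As background, dek mutants form defective kernels in which the endosperm and often the embryo develop poorly. DEK37 is known as a mitochondrial member of the pentatricopeptide repeat proteins, a class of RNA-binding proteins encoded in the nucleus, and is needed for the splicing of a transcript of respiratory complex I. Plants that lack complex I activity are known to rely more on alternative respiratory enzymes, and signals from mitochondria are known to alter nuclear transcription. In the weeks after pollination the maize endosperm fills with starch and storage protein, and later its cells die in a developmental program. Which of these processes the 94 entries belong to was not determined, because the files pair no entry with a gene name and name no genome build. The endosperm label could not be checked against marker genes for the same reason.

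The libraries held 19106174 reads for dek37 and 18139532 reads for WT, read back from the RPKM steps. A single read on 1 kb equals 0.0523 RPKM in the dek37 library and 0.0551 RPKM in that of WT. Among entries that reached 10 RPKM in either library the median ratio was 1.32, a shift of 0.41 on the log2 scale toward dek37. A ratio of 4 thus corresponded to less than 4 relative to the typical entry, and with that median set to 1, 44 of the 94 kept a ratio of at least 4.

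The 94 entries stood at a moderate level in WT, as the rule requires, and spread widely in dek37. In dek37 their levels ran from 44.9 to 1155 RPKM with a median of 115 RPKM, and in WT from 10.02 to 148 RPKM with a median of 22.4 RPKM. The median WT level was close to that of all entries in the range, 22.8 RPKM, whereas in dek37 all entries of the range had a median of 28.4 RPKM. Summed over the set, the level was 18464 RPKM in dek37 and 2927 RPKM in WT, which was 1.52% of the summed RPKM of the dek37 library and 0.214% of that of WT. By rank among all 56848 entries, the median member stood at 1540 in dek37 and at 7102 in WT. In dek37, 36 of the 94 were among the 1000 most abundant entries, against 1 of the 94 in WT.

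**Figure D1:**
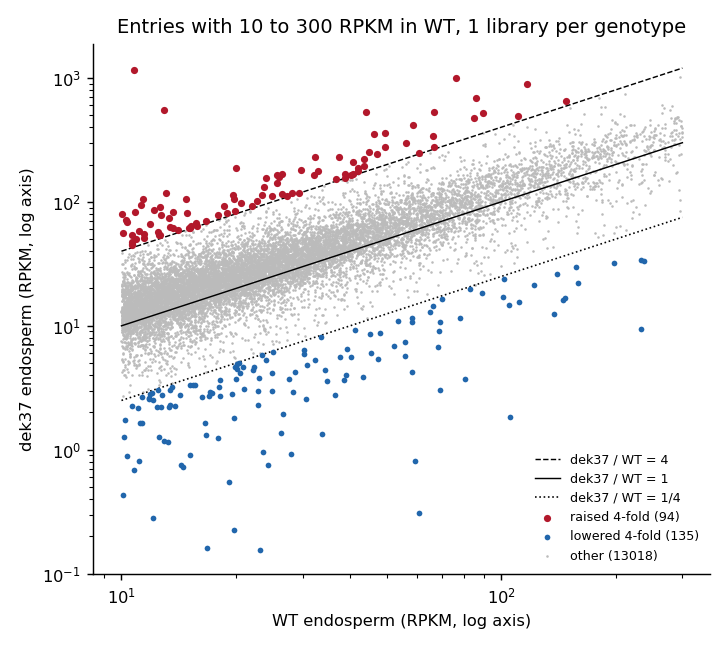
Each point is an entry with 10 to 300 RPKM in WT, with its WT level on the horizontal and its dek37 level on the vertical axis, both in RPKM on log axes. The 94 entries above the dashed line have a ratio of at least 4 and the 135 below the dotted line a ratio of at most 1/4. A pair of points at WT levels near 11 and 13 RPKM lie farthest above the dashed line.

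Most of the set lay close to the lower limit of the ratio. The median ratio was 5.13, with 43 entries below 5, 42 from 5 to 8 and 9 of 8 or more. Only 2 of the 94 exceeded 16. Just inside the limit stood entries on chromosomes 3 and 7, both with a ratio of 4.01, at 117 and 155 RPKM in dek37 and 29.3 and 38.7 RPKM in WT. Just outside it stood entries with ratios of 3.99 on chromosome 5 and 3.96 on chromosome 6. The first of these had 359 RPKM in dek37 and 89.8 RPKM in WT, above the level of most of the set, so values ran on without a break across the limit.

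The largest ratio belonged to an entry on chromosome 9, from 6491044 to 6492220, with 1155 RPKM in dek37 and 10.8 RPKM in WT. Its ratio was 107, with a counting interval of 83.5 to 141 (exact 95%, from 13798 recovered reads in dek37 and 122 in WT). It was the most abundant entry of the set in dek37, at rank 76 of the whole library, and stood at rank 12955 in WT. The nearest loci with at least 10 RPKM did not share this difference. The locus 178 kb before it had 80.1 RPKM in dek37 and 56.3 RPKM in WT, and that 82.7 kb after it had 21.4 RPKM in dek37 and 25.9 RPKM in WT. The second largest ratio was at chromosome 3, from 201909064 to 201909949, where 556 RPKM in dek37 stood against 12.9 RPKM in WT. The nearest loci with at least 10 RPKM, 7.51 kb before and 77.3 kb after it, had ratios of 1.42 and 1.14. The entry's own ratio was 43.0, with a counting interval of 27.3 to 71.7, and the rank was 187 in dek37 and 11368 in WT. Both loci carry a single entry and span about a kilobase (1177 and 886 bases).

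After these a gap followed. An entry on chromosome 3 had 1001 RPKM in dek37 and 76.0 RPKM in WT, with a ratio of 13.2 and an interval of 11.2 to 15.5. On chromosome 6, 533 RPKM in dek37 stood against 44.0 RPKM in WT, with a ratio of 12.1 and an interval of 10.8 to 13.6. The interval of the chromosome 3 entry overlapped that of the chromosome 6 entry, and both lay below the interval of the second entry by ratio. Such intervals may be too wide, so an overlap does not show equal ratios. The ratios ranked 5 to 10 ran from 9.44 down to 7.96, on chromosomes 7, 6, 9, 7, 1 and 2. Of these 6, the chromosome 1 entry was the only one above 200 RPKM in dek37, with 686 RPKM in dek37 and 85.7 RPKM in WT.

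**Figure D2:**
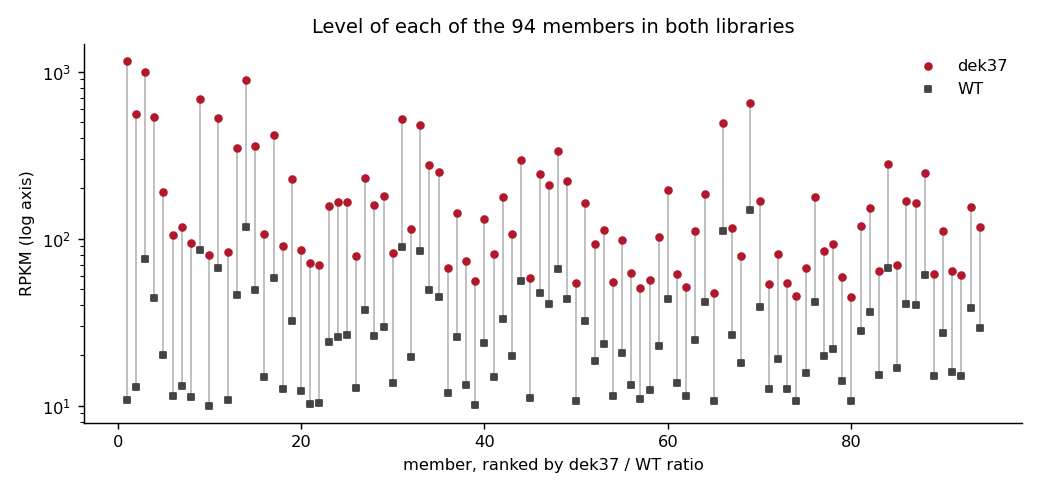
Each of the 94 entries is a vertical line between its dek37 level (circle) and its WT level (square), in RPKM on a log axis, ordered from the largest ratio at the left to the smallest. The levels at rank 1 are 1155 RPKM in dek37 and 10.8 RPKM in WT. Levels of at least 300 RPKM in dek37 lie mostly toward the left, and none lies beyond rank 69.

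A small number of entries carried much of the set's level in dek37. The 15 entries with at least 300 RPKM in dek37 held 48.5% of the set's summed dek37 level. They lay on 7 chromosomes, had WT levels from 10.8 to 148 RPKM, and had a median ratio of 7.60. Of these 15, 2 reached 1000 RPKM. The third most abundant, on chromosome 1, had 889 RPKM in dek37 and 117 RPKM in WT, with a ratio of 7.60 and an interval of 6.80 to 8.52. The fifth, on chromosome 8, had 651 RPKM in dek37 and 148 RPKM in WT, which was the highest WT level of the set, and its ratio was 4.38. At the other end, 39 of the 94 stayed below 100 RPKM in dek37.

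Above the highest WT level of a member, 148 RPKM, a ratio of at least 4 was found only for 4 entries. These had 300 RPKM or more in WT and lay outside the rule. Within the range, entries with such a ratio were found in each class of WT level. They made up 0.769% of 5721 entries with 10 to 20 RPKM in WT, 0.759% of 4878 with 20 to 50 RPKM, 0.602% of 1660 with 50 to 100 RPKM and 0.304% of 988 with 100 to 300 RPKM. The last class held 3 members, and its exact 95% binomial interval, 0.0627% to 0.885%, overlapped those of all the lower classes. The share that was at least 4-fold lower in dek37 was 0.926%, 0.943%, 1.20% and 1.62% in the same classes. In the whole range 135 entries, 1.02%, were at least 4-fold lower. Differences of 2-fold were more often upward, with 1135 entries (8.57%) at a ratio of 2 or more, the 94 included, and 513 (3.87%) at 1/2 or less. These counts are unscaled, and the median ratio of all entries in the range was 1.23. The limits of 2 and 1/2 were thus not equally far from the typical entry, nor were those of 4 and 1/4.

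How many entries were 4-fold higher rather than 4-fold lower depended on which library set the range. With WT between 10 and 300 RPKM the counts were 94 higher and 135 lower. With dek37 between 10 and 300 RPKM they were 557 and 34, and with the mean of both libraries in that range 342 and 97. A rule on the WT level leaves out entries that were low there. Of 576 entries that reached 10 RPKM in dek37 and exceeded WT 4-fold or more, 478 had less than 10 RPKM in WT, 94 were in the range, and 4 had 300 RPKM or more. The 94 are thus 16.3% of all 4-fold higher entries at that level. Of the 478, 96 had 5 RPKM or more in WT, and 64 reached 40 RPKM or more in dek37, the least that any member could have.

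Counting error was small for most of the set. The recovered reads, the smallest numbers that fit the values, ran from 28 to 19022 in dek37 (median 1342) and from 6 to 2308 in WT (median 212). The lower bound of the exact 95% counting interval was at least 4 for 50 of the 94, at least 3 for 87 and at least 2 for 92. Exceptions with few recovered reads were an entry on chromosome 3 with a ratio of 4.43 and an interval of 1.24 to 24.04, and a 312-base entry on chromosome 7 with a ratio of 4.27 and an interval of 1.73 to 12.7. Their fitted lengths were only 31 and 62 bases, for spans of 4895 and 312 bases, so taking the smallest fit may have made these intervals too wide. Some other members had fitted lengths far below their spans too, such as 99 of 1897 bases on chromosome 7. Their intervals may likewise be too wide. Such intervals reflect counting alone, and PCR copies of a molecule may be among the reads.

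Loci that carry several entries allowed another look, since the rule acts on each entry alone. Of the 94, 22 (23.4%) lay on 18 such loci, a share close to the 25.2% of all entries in the range. On 4 loci 2 entries each were members. A chromosome 1 locus had 686 and 228 RPKM in dek37 and 85.7 and 32.3 RPKM in WT, with ratios of 8.01 and 7.07. On chromosome 7, a locus of 2169 bases had ratios of 7.18 and 7.12, one of 2988 bases had 6.42 and 5.14, and one of 37523 bases had 5.55 and 5.30. Within 3 of these 4 loci the counting intervals of the paired ratios overlapped. The exception was the 2988-base locus, with 5.70 to 7.25 against 4.70 to 5.63. As the smallest fit gives the widest intervals, an overlap does not show that ratios are equal.

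The 16 loci with a further, non-member entry held 20 such entries. Of the 20, 16 had less than 10 RPKM in WT and so could not be members. The other 4 lay in the WT range and so had ratios below 4 by the rule. Over all 20 the median ratio was 3.35 (order-statistic 95% interval 1.20 to 4.75), 12 had a ratio of at least 2 and 7 a ratio of at least 4. The 4 with a ratio below 1 had at most 0.540 RPKM in dek37 and 0.631 RPKM in WT. Some of them had the same recovered reads, 1 or 2, in both libraries. Their ratio of 0.949 is only that of the library totals. Among the 15 with at least 1 RPKM in either library the median was 3.77 and the lowest 1.19. Entries of a locus can share reads, so these ratios are no independent check.

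A locus on chromosome 5 was the clearest exception. Its member had 244 RPKM in dek37 and 47.2 RPKM in WT, with a ratio of 5.17. A further entry of the same locus had 62.7 RPKM in dek37 and 52.3 RPKM in WT, with a ratio of 1.20 and a counting interval of 0.854 to 1.68. Another had 12.1 RPKM in dek37 and 10.2 RPKM in WT, with a ratio of 1.19. In WT the member was thus slightly below the first of these entries, and in dek37 it was far above both. On chromosome 10 the order was turned round, since the member had 522 RPKM in dek37 and 89.7 RPKM in WT, with a ratio of 5.82, while a further entry with 90.9 RPKM in dek37 and 8.55 RPKM in WT had a ratio of 10.6. The interval of that entry, 5.57 to 22.8, overlapped the member's, 5.06 to 6.72. It rested on 224 recovered reads in dek37 and 20 in WT, the smallest that fit, so the overlap does not show equal ratios. These 2 loci were picked after their values were seen.

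**Figure D3:**
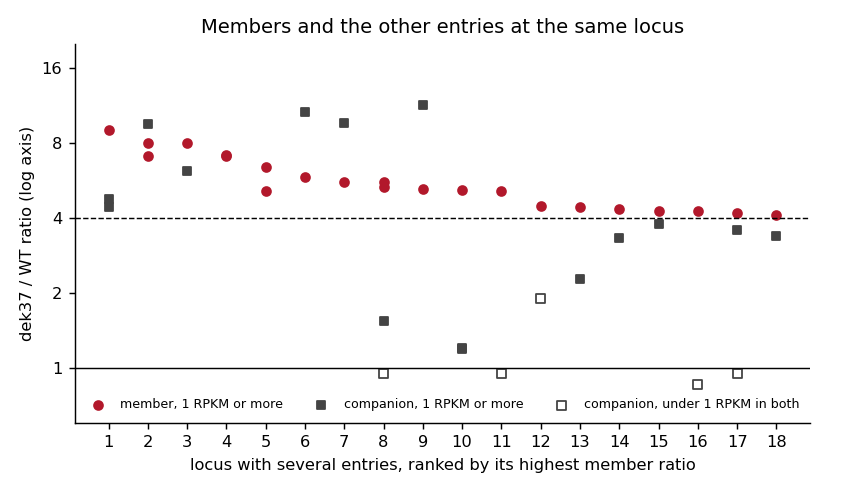
For each of the 18 loci with several entries, circles give the dek37 over WT ratio of members and squares that of the other entries, on a log axis, with open squares for entries under 1 RPKM in both libraries. At locus 10, on chromosome 5, the member has a ratio of 5.17 and the other entries lie near 1.2, whereas at loci 2, 6, 7 and 9 a further entry lies above the member. The counting interval of each such entry overlaps that of the member, and at loci 2 and 9 the entry has only 2 recovered reads in WT. The intervals rest on the smallest reads that fit, so an overlap does not show equal ratios.

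The members' loci were short. Span, the distance from the start to the end of a locus with any introns, was not used by the rule. The 90 loci had a median span of 1778 bases (order-statistic 95% interval 1495 to 2208), against 3808 bases (3738 to 3866) for all 12352 loci in the range. Of the 94 entries, 52 (55.3%) spanned less than 2000 bases, against 25.2% of the range, and 16 (17.0%) spanned 4000 bases or more, against 47.7%. The median over entries at single-entry loci was 1574 bases for the set and 3557 bases for the range. The spans ran from 265 to 37523 bases.

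Short span was shared with the opposite change. The 135 entries at least 4-fold lower in dek37 had a median locus span of 1476 bases (1250 to 1767). By span class, members made up 0.963% of entries under 1000 bases, 2.15% from 1000 to 2000 bases, 0.726% from 2000 to 4000 bases, 0.224% from 4000 to 8000 bases and 0.304% at 8000 bases or more. Entries at least 4-fold lower made up 2.47%, 2.98%, 0.809%, 0.249% and 0.217% of the same classes. The median ratio of all entries differed little between classes, from 1.11 under 1000 bases to 1.27 at 2000 to 4000 bases.

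**Figure D4:**
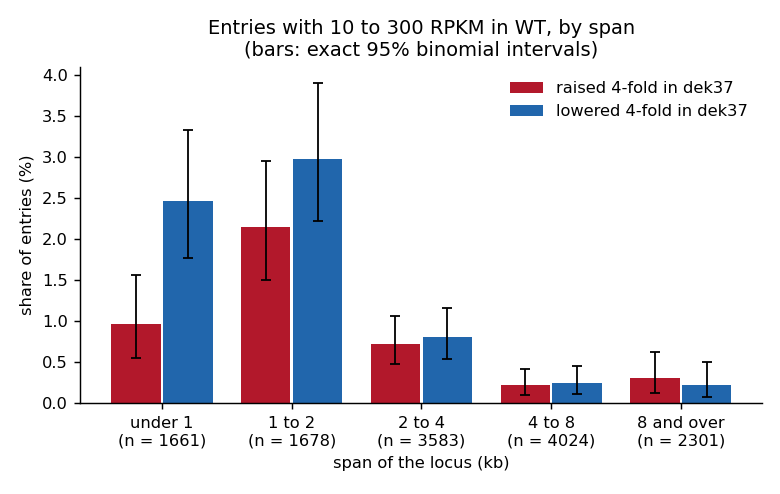
Bars give the percentage of entries with 10 to 300 RPKM in WT that exceed a 4-fold difference upward or downward in dek37, by span of the locus in kb, with exact 95% binomial intervals over entries. Both shares peak at 1 to 2 kb, at 2.15% and 2.98%, and are at most 0.304% from 4 kb upward.

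The set was spread over all 10 nuclear chromosomes. Chromosome 1 held 21 members, chromosome 7 held 14 and chromosome 10 held 11, while the others held 6 to 9 each. As a share of the entries in the range this was 1.01% on chromosome 1, 1.32% on chromosome 7 and 1.25% on chromosome 10, against 0.384% on chromosome 2, the lowest. The exact binomial interval of chromosome 7, 0.724% to 2.21%, was the only one of the 10 that did not include 0.710%, and its 14 members lay on 11 loci, so they were not independent. Neither the 2 mitochondrial nor the 9 chloroplast entries in the range were members. With so few entries the exact binomial intervals reached up to 84.2% and 33.6%, so their absence says little.

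**Figure D5:**
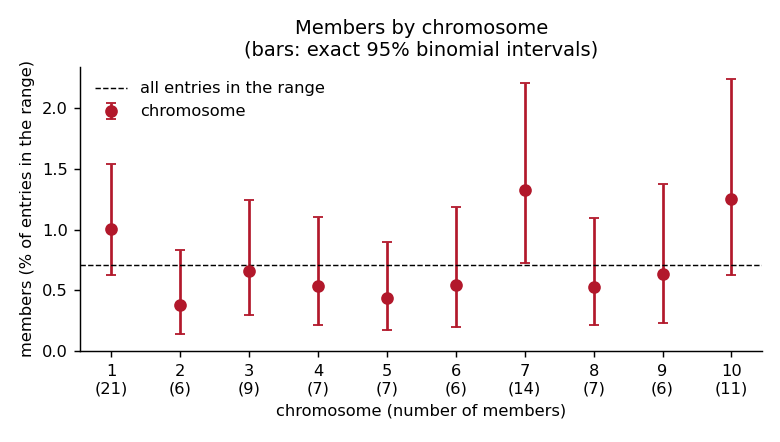
Points give the members as a percentage of the entries with 10 to 300 RPKM in WT on each chromosome, with exact 95% binomial intervals, and the dashed line the 0.710% of the whole range. The points lie between 0.384% on chromosome 2 and 1.32% on chromosome 7, and all intervals but that of chromosome 7 include the line.

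Few members lay close to each other, and how many a set of this size would give by its sparse spread was not examined. Of the 90 loci, 2 (2.22%) had another member locus within 100 kb and 13 (14.4%) within 1 Mb. Among the 129 loci of the entries 4-fold lower the shares were 6.20% and 21.7%, but a larger list gives larger shares by itself. The 2 close loci lay on chromosome 1 between 16783282 and 16793281, with 7644 bases between them. They had 62.4 and 131 RPKM in dek37 against 13.4 and 23.7 RPKM in WT, with ratios of 4.66 and 5.51. A further locus, 5146 bases before the first, had 13.0 RPKM in dek37 and 0.896 RPKM in WT, with a ratio of 14.5, and fell outside the set for its low WT level.

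Another stretch on chromosome 1, from 119412480 to 120195211 (783 kb), held 3 members and no other entry with at least 10 RPKM. In dek37 these had 527, 889 and 178 RPKM, and in WT 66.4, 117 and 32.9 RPKM. Their ratios were 7.93, 7.60 and 5.42. The other 10 entries inside had at most 4.45 RPKM in dek37 and 3.11 RPKM in WT. Thus all entries of that stretch that reached 10 RPKM in either library were members, among them 2 of the 8 most abundant of the set in dek37. Stretches with at least 2 member loci no more than 1 Mb apart were also found on chromosomes 2, 3 (2 stretches) and 10, each with 2 member loci. They held 4 to 11 other entries of at least 10 RPKM, non-member entries at the member loci included, and the median ratios of these ran from 1.23 to 1.97.

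The nearest expressed neighbours of the members had ratios far below those of the members and a median somewhat above that of the range. For each of the 90 loci, the nearest other locus without a member and with at least 10 RPKM in either library had a median ratio of 1.40 (interval 1.33 to 1.56), at a median distance of 26.2 kb. Over all 12352 loci in the range, with no neighbour left out for being a member, the median was 1.32 (1.31 to 1.33), and for the loci of the entries 4-fold lower, with those entries left out as neighbours, it was 1.28 (1.11 to 1.44). Of the 90 neighbours 22 (24.4%) had a ratio of at least 2, against 15.6% in the range, and 5 (5.56%) a ratio of at least 4, against 3.09%. The 90 were counted per member locus and were not all different loci. On chromosome 1 the neighbour with a ratio of 14.5 was counted for 2 members, and so was that with 1.36. The shares and the interval do not allow for such repeats. A ratio of at most 1/2 was found for 5 (5.56%), against 3.32%. No test was made of these differences, and neighbours come from the same 2 libraries as the rule.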

How the data were processed

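RNA-seq libraries of dek37 and WT endosperm, 1 each, were compared. The deposited values are RPKM, reads scaled by the authors for length and library depth, per the file headers. The submitters' processing notes name Bowtie 0.12.2. The build, annotation, counting program, filters and treatment of reads that match several places are not stated in the labels or headers, and near-identical copies may share reads. Files were joined by row after checking that their loci were in the same order. Starts were taken as 0-based, since RPKM times end minus start gave whole reads for 615 entries, against 198 with 1 base added (relative tolerance 1e-06), and are printed 1-based. The library totals in both counts came from spans without the added base, which favours the first.

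RPKM are not counts, so no count model was run. Library totals came from the commonest product of RPKM and span. For each member the smallest reads (1 or an even number) that a length of 30 to 25000 bases gave in both libraries were taken (relative tolerance 1e-09), which succeeded for all 94. Ratio intervals are exact (Clopper-Pearson, 95%), on fragments of 2 reads, with a recovered value of 1 read taken as no fragment. On simulated data the recovered reads gave back the true ratio, which any fitting length would do. Whether they equal the true reads was not tested. The intervals were tested there on the true simulated reads, not on recovered ones, and the scalings on a known factor. Analyses used Python 3.11.15, numpy 2.4.6, pandas 2.3.3 and scipy 1.17.1. By position were named the 2 members with the largest ratio and the stretches of neighbouring members. Others are given by chromosome, rank and value. The members, lists and classes were chosen with earlier results of these data known. The alternatives were other scalings, floors, thresholds and a pseudocount.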

Additional observations from a re-analysis of the deposited data

How the results depend on the processing

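Leaving out a library was not an option. No paired analysis was possible because only 1 library stands on each side. Against 94 members on 90 loci, there were 262 on 248 at 3-fold, 51 on 47 at 5-fold, 190 on 181 with a WT floor of 5 RPKM, 50 on 48 with a floor of 20 RPKM, 44 on 41 with the median log2 ratio set to 0 and with a trimmed mean of M values (30% and 5% trimmed), 52 on 48 with totals made equal after removal of the 50 most abundant entries, and 50 on 47 with the counting interval above 4. All 44, 44 and 52 members under the scalings were among the 94, which the division of every dek37 value by 1 factor makes certain. With the range set on dek37 or on the mean, choices made after seeing the data, the count was 557 or 342. As a share of the range, against 0.710%, these settings gave 1.98% at 3-fold, 0.385% at 5-fold, 0.978% with the floor of 5 RPKM, 0.332% with the median and with the trimmed mean, 0.393% with equal totals, 0.377% with the interval above 4, and 3.53% and 2.32% with the range set on dek37 and on the mean. Without an upper WT limit, with a pseudocount of 1, with 1 entry per locus and without the 2 named members, the count stayed within 1.5 times (84 to 98).

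Members with another within 100 kb numbered 2. There were 20 at 3-fold, 4 with the floor of 5 RPKM, and 0 at 5-fold, with the floor of 20 RPKM, under the 3 scalings and with the interval above 4. The share of summed dek37 RPKM, 1.52%, was 3.26% at 3-fold, 1.08% at 5-fold, 1.86% and 1.13% with floors of 5 and 20 RPKM, 0.970% with the median and the trimmed mean, 1.08% with equal totals, 1.10% with the interval above 4, 2.68% with no upper limit, 1.45% with the pseudocount, 1.56% with 1 entry per locus and 1.38% without the 2 named members. The neighbours' median ratio, 1.40, was 1.03 with the median and with the trimmed mean and 1.11 with equal totals, since scaling divides it too. The ratio of 107 on chromosome 9 became 81.1 and 81.0 with the median and the trimmed mean. The median span stayed between 1745.5 and 2028.5 bases under all 14 settings, and the companions' median between 2.42 and 4.75 under the 11 that gave one. Depth limits entries with few reads, and the cause of the spans was not tested.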

Other observations

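A wider look at the surroundings included entries with any WT level. Within it, 5 of the 90 member loci (5.56%, exact 95% binomial interval 1.83% to 12.5%) had within 50 kb another locus that was at least 4-fold higher with at least 10 RPKM in dek37. The share was 4.65% (1.73% to 9.85%) for loci of entries 4-fold lower and 3.996% (3.66% to 4.36%) for the other loci of the range. The 3 intervals overlapped.

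In 5 pairs of members at different loci the ratio was equal to within 1e-09. A pair on chromosomes 3 and 7, at 117 and 155 RPKM in dek37 and 29.3 and 38.7 RPKM in WT, had equal recovered reads, 1454 in dek37 and 344 in WT. A pair on chromosome 1, at 64.0 and 154 RPKM in dek37 and 15.3 and 36.6 RPKM in WT, had 910 in dek37 and 206 in WT at both loci. In the other 3 pairs the recovered reads differed, and all these numbers are only the smallest that fit. Among the 135 entries 4-fold lower, 6 such pairs were found, and those at a ratio of 0.237 shared an entry. Their recovered reads ran only from 2 to 74 in dek37 and from 8 to 350 in WT. Small read numbers give equal ratios more readily, so the 2 counts are not alike. Such pairs were not counted over all entries in the range. Whether any reads were counted at both loci was not tested.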
